A study of Mus musculus with 2 samples.

Results

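The aminoacyl-tRNA synthetases, the enzymes that charge each transfer RNA with its amino acid, were described in naive mouse T cells of the CD4 and CD8 lineages. They were picked by gene symbol: a capital letter for the amino acid followed by "ars", with an optional 2, a or b, and Eprs. This gave 37 of the 23167 symbols measured, of which 20 encode cytosolic enzymes and 17, those ending in 2, encode mitochondrial enzymes. The cells came from Foxp3-GFP mice on a C57/BL6 background, a strain in which a green fluorescent reporter marks regulatory T cells. Both groups shared this strain, the tissue (spleen and lymph nodes) and the sort (CD62L-high, CD44-low, CD25-negative and negative for the Foxp3 reporter), and they differed in the lineage sorted. Total RNA depleted of ribosomal RNA was sequenced on the SOLiD platform as 1 library per cell type. The sources used here do not state the age, sex or number of the mice. With 1 library a group no difference has a replicate check, and no p-value is given. In bulk RNA, fewer expressing cells and less RNA per cell cannot be told apart.

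Each synthetase activates its amino acid with ATP and joins it to the matching tRNAs, and the charged tRNA is then carried to the ribosome by an elongation factor. The enzymes fall into classes I and II by the fold of their catalytic domain. In mammals several cytosolic synthetases sit with scaffold proteins in a multi-synthetase complex, and separate nuclear genes encode most of the mitochondrial set. Uncharged tRNA is sensed by the kinase GCN2, which raises translation of the factor ATF4, and ATF4 in turn activates synthetase and amino acid supply genes. Naive T cells make little protein until they are activated, when synthetase expression rises as part of cell growth.

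The CD4 library held 24741945 reads in all and the CD8 library 23853921. The synthetases had 330 to 8211 recovered reads in CD4, with a median of 1732, and 402 to 7938 in CD8, with a median of 1700. The sort was reflected in the coreceptor genes: Cd4 was at 305 and 8.89 RPKM in CD4 and CD8, and Cd8a at 2.5 and 518 RPKM. RPKM is reads per kilobase of gene per 1000000 reads, so levels of different genes can be compared on it. T cell markers were high in both libraries, with the 5 listed genes summing to 1965 and 1929 RPKM. The 6 NK cell markers summed to 45 RPKM in CD4 and 179 in CD8, and their part in the differences between the libraries was not tested. Of these, Ncr1 was at 0.111 and 0 RPKM and Klrd1 at 7.85 and 106. The 6 B cell markers summed to 3.45 and 30.1 RPKM, of which Cd79b gave 2.14 and 28.8, while Cd79a, Ms4a1, Pax5 and Blnk were all below 1 RPKM in both. Erythroid, granulocyte, dendritic cell and macrophage markers each summed to under 5 RPKM in both libraries.

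All 37 synthetases were expressed in both cell types, at 3.99 RPKM or more in CD4 and 5.15 RPKM or more in CD8. All of them passed the filter used for the comparison, which is 1 RPKM or more in at least 1 library, and all were at 5 RPKM or more in at least 1 library. Summed over the 37 genes, the level was 1108 RPKM in CD4 and 1112 in CD8. The cytosolic enzymes summed to 870 and 879 RPKM and the mitochondrial ones to 238 and 232. The families were thus close in total between the cell types, while the cytosolic enzymes stood well above the mitochondrial ones. The median cytosolic level was 43.5 RPKM in CD4 and 43.2 in CD8, and the median mitochondrial level was 12 and 12.7 RPKM. The median of all 10228 genes compared was 14.1 and 13.4 RPKM. It was exceeded by 20 of 20 cytosolic enzymes in CD4 and 19 in CD8, and by 6 of 17 mitochondrial enzymes in CD4 and 7 in CD8.

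**Figure D1:**
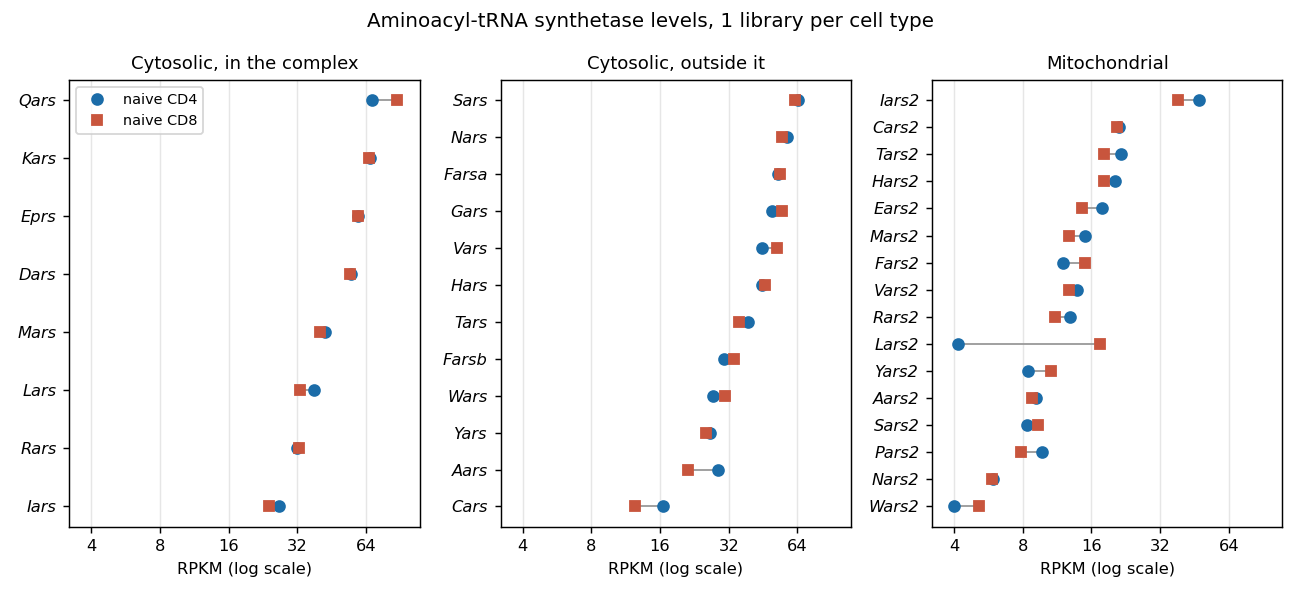
Level of 36 of the 37 synthetases in RPKM (log scale) in the naive CD4 library (circles) and the naive CD8 library (squares), with 1 library each and no error bars; grey lines join the values of a gene. Points nearly coincide for most enzymes, Qars is the highest and Lars2 has the widest gap, at 4.17 against 17.5 RPKM.

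Among the enzymes of the multi-synthetase complex, Qars, which charges glutamine tRNA, was the highest of all synthetases in both libraries, with 67.8 RPKM in CD4 against 87.4 in CD8. Kars, the lysyl enzyme whose gene serves the cytosol and the mitochondria, followed at 66.8 and 65.9 RPKM. Eprs, a fusion of the glutamyl and prolyl enzymes, was at 59 and 59.2 RPKM, and Dars, the aspartyl enzyme, at 55.1 and 54.6. These 4 held the upper end of the complex in both cell types. Mars, the methionyl enzyme, was at 42.2 and 40.3 RPKM, and Lars, the leucyl enzyme that has also been described as a leucine sensor for mTORC1, at 37.8 and 32.9. Rars, the arginyl enzyme, was at 31.8 and 32.6 RPKM, and Iars, the isoleucyl enzyme, was the lowest of the complex at 26.5 and 24. Subunits of the same complex therefore spanned 26.5 to 67.8 RPKM in CD4.

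Outside the complex, Sars, the seryl enzyme, was the highest, with 64.6 RPKM in CD4 against 62.2 in CD8, followed by Nars, the asparaginyl enzyme, at 57.9 and 54.7. Gars, the glycyl enzyme, which like Kars serves both compartments from a single gene, was at 49.5 and 54.7 RPKM. Vars, the valyl enzyme, was at 44.7 and 52.3, Hars, the histidyl enzyme, at 44.9 and 46, and Tars, the threonyl enzyme, at 39.1 and 35.4. Phenylalanyl-tRNA synthetase is built from equal numbers of alpha and beta chains. Its alpha chain gene Farsa was at 52.8 and 53.6 RPKM and its beta chain gene Farsb at 30.5 and 33.7, a ratio of 1.73 in CD4 and 1.59 in CD8. The lower end was held by Wars, the tryptophanyl enzyme (27.2 and 30.8 RPKM), Yars, the tyrosyl enzyme (26.4 and 25.5), Aars, the alanyl enzyme (28.7 and 21.1), and Cars, the cysteinyl enzyme (16.4 and 12.4). The highest cytosolic level was 4.13 times the lowest in CD4 and 7.07 times in CD8.

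The mitochondrial enzymes were lower, and the spread among them was 11.8-fold in CD4 and 7.45-fold in CD8. Iars2, the mitochondrial isoleucyl enzyme, stood apart at 47.3 RPKM in CD4 and 38.3 in CD8, above the median cytosolic enzyme in CD4. Tars2 (21.5 and 18.1 RPKM), Cars2 (21.1 and 20.6) and Hars2 (20.2 and 18.1) came next in CD4. At the low end, beside Lars2, were Wars2 at 3.99 and 5.15 and Nars2 at 5.92 and 5.84 RPKM. Of the 17 enzymes, 12 were below the lowest cytosolic synthetase in CD4 and 8 in CD8.

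For 18 pairings of a cytosolic gene with the mitochondrial gene for the same amino acid, the cytosolic gene was higher in 16 in both libraries, with a median ratio of 3.19 in CD4 and 3.05 in CD8. Eprs enters with both Ears2 and Pars2, and Farsa and Farsb share Fars2, so the pairings are not independent. The exceptions were isoleucine, where Iars stood at 0.56 of Iars2 in CD4 and 0.627 in CD8, and cysteine, where Cars stood at 0.78 and 0.6 of Cars2. The largest ratio was for asparagine (9.77 and 9.37). The ratio in CD4 divided by that in CD8 lay between 0.786 (valine) and 1.31 for 17 of the pairings. Leucine fell outside, with Lars at 9.08 times Lars2 in CD4 and 1.88 times in CD8. Glutamine has no pairing here: mitochondrial glutaminyl-tRNA is made from glutamyl-tRNA that Ears2 charges and an amidotransferase converts.

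**Figure D2:**
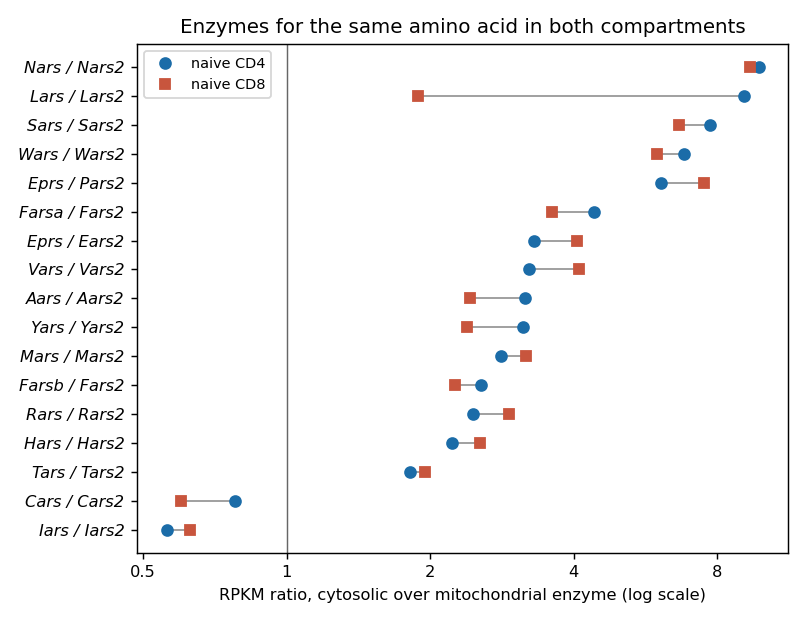
Ratio of the cytosolic to the mitochondrial enzyme's RPKM for the same amino acid (log scale) in 17 of the pairings, in the naive CD4 library (circles) and the naive CD8 library (squares); the vertical line marks a ratio of 1. Ratios run from 0.56 to 9.77 in CD4, and the leucine pairing is the one that changes most, from 9.08 to 1.88.

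The naive CD4 and CD8 libraries had nearly the same synthetase profile, with Lars2 as the exception. Differences were measured as log2((CD4 RPKM + 1)/(CD8 RPKM + 1)), and the 1.5-fold and 2-fold rules were read on it. By this measure 33 of the 37 synthetases were less than 1.25-fold apart, against 61.0% of all genes compared and 64.1% of the 8163 genes that reached 5 RPKM. The 4 others were Aars, Cars, Qars and Lars2. The pseudocount narrows differences of low genes. Without it Wars2 and Yars2 also reached 1.25-fold, both toward CD8. At the 1.5-fold rule 0 synthetases were higher in CD4, where 8.07% of all genes were, and 1 was higher in CD8, where 7.47% were. At the 2-fold rule the counts were 0 (all genes 2.41%) and 1 (all genes 3.07%). The median difference was 0.03 for all 37, 0.02 for the cytosolic and 0.05 for the mitochondrial enzymes, beside 0.08 for all genes compared. The 19 class I enzymes had a median of 0.05 and the 18 class II enzymes 0.02. Across the 37 genes the levels in the 2 libraries had a Pearson r of 0.945 on the log2 scale (0.983 over the 36 without Lars2). Over all 10228 genes compared it was 0.95, so the r of the 37 was near that of genes in general. Each r is a description over genes that share the same libraries.

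**Figure D3:**
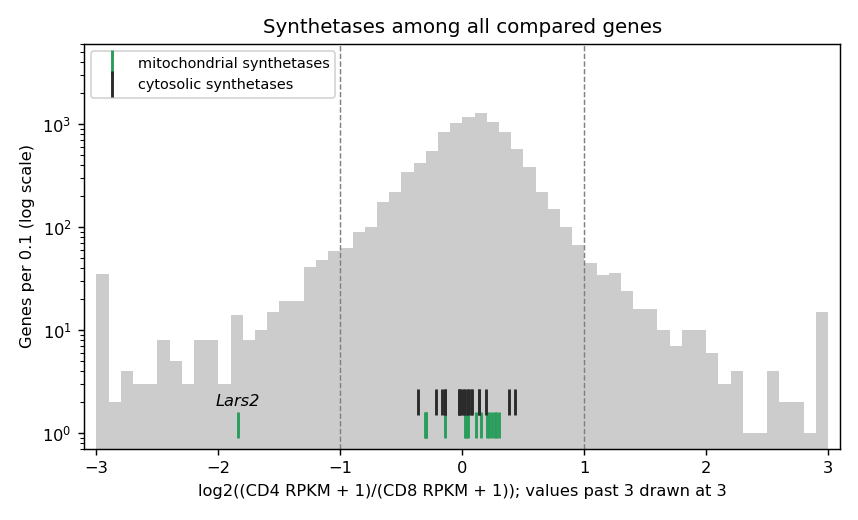
Grey bars count all 10228 compared genes by log2 difference (CD4 minus CD8, pseudocount 1 RPKM, count on a log scale), tick marks show 20 cytosolic (black, upper) and 16 mitochondrial (green, lower) synthetases, and dashed lines mark 2-fold. The ticks lie between -0.36 and 0.43 except for Lars2 at -1.84.

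Small differences could be resolved by counting for many members, since the least covered of them had 330 reads. Folds in the following sentences are ratios of the deposited RPKM with exact 95% counting intervals, which compare the libraries and not the cell types. The interval lay above 1 (CD4 higher) for 14 synthetases, or 37.8%, where 45.0% of all genes had such an interval. It lay below 1 for 9, or 24.3%, where 27.1% of all genes did, and held 1 for the other 14. By sign alone 23 members stood toward CD4 and 14 toward CD8, where 59.5% and 40.5% of all genes did. These splits depended on scaling. Centring on the median gene gave 13 and 24, where all genes split 50% and 50%. Leaving the reads of Rn45s out of the totals gave 18 and 19 (all genes 55.1% and 44.9%). Rescaling each library to a sum of 1000000 gave 31 and 6 (all genes 76.4% and 23.6%). That rescaling moved the median of all genes from 0.08 to 0.29. Another pseudocount or filter cannot turn a direction, so centring, rescaling and leaving out Rn45s were the alternatives that could. Of the 23 members with an interval on 1 side of 1, 19 kept their direction under these. Farsb, Gars, Nars and Wars did not.

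Toward CD4, the widest folds among the cytosolic enzymes were in Aars and Cars, and among the mitochondrial ones in Iars2, Pars2 and Ears2. Aars had 28.7 RPKM in CD4 against 21.1 in CD8, from 1732 and 1228 reads, a 1.36-fold difference (1.26 to 1.46). Cars was at 16.4 and 12.4 RPKM, from 1300 and 944 reads (1.33-fold, 1.22 to 1.45). Iars2 was at 47.3 and 38.3 RPKM, from 4116 and 3216 reads (1.23-fold, 1.18 to 1.29). Pars2, the mitochondrial prolyl enzyme, at 9.71 and 7.89 RPKM, and Ears2, the mitochondrial glutamyl enzyme, at 17.9 and 14.6, were each 1.23-fold higher in CD4 (both intervals from 1.1, to 1.37 and 1.36). Tars2, Mars2, Rars2, Hars2 and Vars2 were also above 1, at 1.19, 1.18, 1.16, 1.12 and 1.09-fold. In the cytosolic set Lars (1.15-fold, 1.09 to 1.21), Iars (1.1-fold) and Tars (1.1-fold) stood toward CD4. Nars, at 1.06-fold (1.01 to 1.11), turned to -0.0017 on the log2 scale when differences were centred on the median gene. Of the 14 enzymes with an interval above 1, 8 were mitochondrial, out of 17, and 6 cytosolic, out of 20. The share of all genes with such an interval was 45.0%, near that of the mitochondrial enzymes.

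Toward CD8, Lars2 led, followed by Qars, Wars2, Yars2 and Fars2. Qars had 87.4 RPKM in CD8 against 67.8 in CD4, from 5627 and 4529 reads, a 1.29-fold difference (1.24 to 1.34). Wars2, the mitochondrial tryptophanyl enzyme, was at 5.15 and 3.99 RPKM from 538 and 433 reads (1.29-fold, 1.13 to 1.47). Yars2, the mitochondrial tyrosyl enzyme, was at 10.7 and 8.43 RPKM from 402 and 330 reads (1.26-fold, 1.09 to 1.47), and Fars2, the mitochondrial phenylalanyl enzyme, at 15 and 12 RPKM (1.25-fold, 1.12 to 1.39). The mitochondrial enzymes for the aromatic amino acids tryptophan, tyrosine and phenylalanine were thus all higher in the CD8 library, a grouping made after their values were seen. Vars was 1.17-fold higher in CD8 (1.12 to 1.22). Wars (1.13-fold), Gars (1.11-fold) and Farsb (1.1-fold) were also higher in CD8 as deposited, but stood at 0.03, 0.07 and 0.07 toward CD4 on the log2 scale after rescaling to a sum of 1000000. The interval of Wars held 1 with the fewest reads its values allow, which no other member's call depended on.

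Enzymes whose interval held 1 differed by too little to detect at this depth. Among them were Eprs, Dars, Kars, Mars, Rars, Sars, Yars, Hars and Farsa in the cytosol and Aars2, Cars2, Nars2 and Sars2 in mitochondria. The narrowest was Eprs at 8211 and 7938 reads, with an interval of 0.972 to 1.03 for CD8 over CD4. The widest were Sars2, at 392 and 422 reads (0.971 to 1.28 for CD8 over CD4), and Nars2, at 548 and 521 reads (0.898 to 1.15 for CD4 over CD8).

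**Figure D4:**
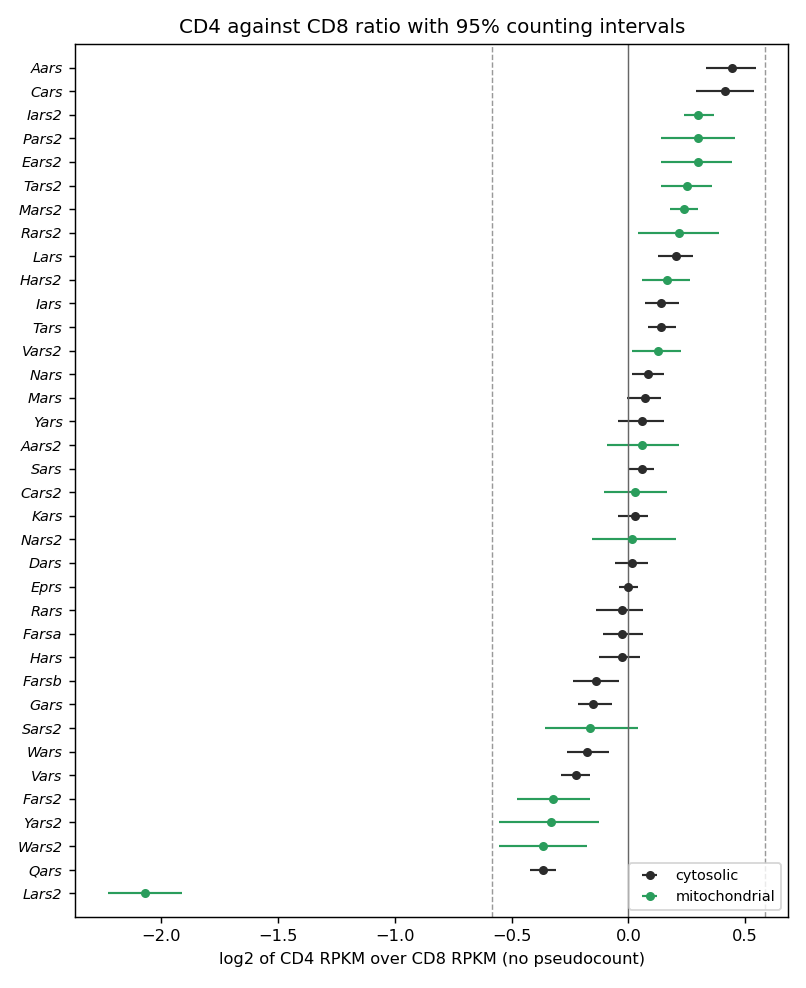
Ratio of CD4 to CD8 RPKM on a log2 scale with exact 95% counting intervals (bars) for 20 cytosolic (black) and 16 mitochondrial (green) synthetases, ordered by ratio; dashed lines mark 1.5-fold. All points but Lars2 lie inside the dashed lines, from 1.36-fold toward CD4 (Aars) to 1.29-fold toward CD8 (Qars and Wars2).

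Lars2, the mitochondrial leucyl enzyme, had 4.17 RPKM in CD4 against 17.5 in CD8, from 398 and 1610 reads, a 4.2-fold difference toward CD8 (3.76 to 4.69). It ranked 16 of 17 mitochondrial enzymes in CD4 and 5 of 17 in CD8, so its level was among the lowest in 1 library and among the higher ones in the other. Its log2 difference of -1.84 ran from -1.29 with a pseudocount of 5 RPKM to -2.04 with 0.1 RPKM. Without Lars2 the mitochondrial enzymes summed to 233 RPKM in CD4 and 215 in CD8, against 238 and 232 with it. Rn45s, the ribosomal RNA precursor, differed in the same direction: it had 612 RPKM in CD4 against 5277 in CD8, 8.62-fold higher (8.56 to 8.68), and held 0.357% and 3.08% of the library totals in a preparation meant to remove ribosomal RNA. In the annotated Lars2 transcript of 3894 bases, whose coding sequence ends at base 2908, stretches between bases 3163 and 3349 matched transcripts of other genes. These were Gm15564 (72 bases at 98.6% identity) and AA474408 (50 bases at 96% and 97 bases at 94.8%). The sources used here do not state how reads with several matches were counted. The part of Rn45s or of these shared bases in the Lars2 difference was not tested, and the Lars2 value is uncertain for that reason.

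Other members also share bases with a neighbour or a copy. In the GENCODE M21 annotation 14 of the 37 have exons overlapped by a gene on the opposite strand. For 1, Aars, a gene on the same strand overlaps (Exosc6, over 1326 bases of an Aars form of 5750 bases). The length recovered behind the deposited Aars values was 2435 bases, so whether they include this overlap is not known. In Iars, 2209 of 4396 transcript bases match Gm4849. The sources used here do not state whether the authors' counting used strand, so these reads cannot be assigned with certainty. In the 21 members with no shared or overlapped bases the median log2 difference was 0.01. It was 0 in the 13 cytosolic ones, against 0.02 in all cytosolic enzymes, and 0.13 in the 8 mitochondrial ones, against 0.05. Hars and Hars2 start 197 bases apart on opposite strands and share 195 exon bases, and they were at 1.02-fold toward CD8 and 1.12-fold toward CD4. Of the 37 members, 10 have the start of a coding gene on the opposite strand within 1000 bases, such as Mrps12 beside Sars2.

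Promoters of the members were searched for letters bound by known regulators, in RefSeq windows (GRCm38.p6) of 250 bases before to 50 after the start, which were at hand for 26 of the 37. The composite TGATGCAA (TTGCATCA on the other strand), at which ATF4 pairs with a C/EBP factor in amino acid response genes, stood in 4 of 26 windows (15.4%), those of Iars, Tars and Yars among them, against 0.929% of 27025 windows of all genes. All 4 are cytosolic, out of 12 cytosolic windows, and 0 of 14 mitochondrial windows held it. The wider form TGATGNAAN, which includes the first, stood in these 4 and in Gars (19.2%, all genes 4.04%). Sites of 4 members are printed here: Tars, Iars and Yars hold TGATGCAA, and Gars holds the wider form alone. Each has 30 bases on the strand of the gene with the match in capitals. The end letter of the wider form, which can be any base, is left in small letters.
Tars, GRCm38.p6 chr15:11399655-11399684, minus strand: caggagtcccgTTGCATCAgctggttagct
Iars, GRCm38.p6 chr13:49682126-49682155, plus strand: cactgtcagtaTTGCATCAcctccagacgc
Yars, GRCm38.p6 chr4:129189895-129189924, plus strand: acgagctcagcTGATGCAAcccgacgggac
Gars, GRCm38.p6 chr6:55037960-55037989, plus strand: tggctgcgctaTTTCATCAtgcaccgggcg
Counted from the transcription start, the capitals begin at base -15 in Tars, -30 in Gars, 8 in Iars and 4 in Yars. In Yars the match reads in the other orientation from the rest.

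Beside these windows, the CD4 to CD8 folds were 1.1 for Iars, 1.1 for Tars and 1.04 (0.97 to 1.11) for Yars, while Gars was 1.11-fold higher in CD8. Another member with TGATGCAA is not listed here, so these folds do not give the range for members with the site. Atf4 itself had 105 RPKM in CD4 against 78.4 in CD8, a difference of 1.33-fold (1.27 to 1.39). Whether the site has a part in these values was not tested. The E-box CACGTG stood in 5 windows, 4 of them cytosolic (19.2%, all genes 7.24%). The GC box GGGCGG stood in 19 windows, 8 cytosolic and 11 mitochondrial (73.1%, all genes 35.9%), and the ETS letters CCGGAAGT in 2 (7.69%, all genes 4%). The NRF1 motif stood in 0 windows (all genes 0.977%). All were searched on both strands. The synthetase windows had a median GC content of 57.8%, against 52.7% in all windows.

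The scaffold proteins of the multi-synthetase complex were all slightly higher in CD8 as deposited. Aimp1 had 53.4 RPKM in CD8 against 47.6 in CD4, a difference of 1.12-fold (1.04 to 1.21), Aimp2 had 23 and 19.5 (1.18-fold, 1.05 to 1.32) and Eef1e1, also called AIMP3, had 25 and 21.6 (1.16-fold, 1.08 to 1.24). After rescaling to a sum of 1000000 this direction was lost: Aimp1 stood at 0.05, Aimp2 at -0.02 and Eef1e1 at 0 on the log2 scale. The 8 synthetases of the complex had a median log2 difference of 0.02, with 2 intervals above 1, 1 below it and 5 that held it. Of all genes 45.0% had an interval above 1 and 27.1% below it. The 3 scaffold genes had a median of -0.2, which became 0 after that rescaling, and 0 of 3 passed the 1.5-fold rule. Of all genes 8.07% passed that rule toward CD4 and 7.47% toward CD8.

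The 6 measured genes of amino acid conversion on tRNA went both ways, with 4 above 0 and 2 below. Of their intervals 3 lay above 1, 1 below it and 2 held it, where 45.0% of all genes lay above 1 and 27.1% below. Qrsl1 and Gatc encode subunits of the amidotransferase that converts the product of Ears2. Qrsl1 had 11.6 RPKM in CD4 against 7.45 in CD8, a difference of 1.56-fold (1.36 to 1.79), and Gatc had 3.44 and 1.68 RPKM (2.05-fold, 1.54 to 2.76). Pet112l, another subunit of it, had 8.56 and 8.24 RPKM with an interval that held 1. The median of the list was 0.17 (0.38 after rescaling to a sum of 1000000), and 1 gene, Gatc, passed the 1.5-fold rule toward CD4, as did 8.07% of all genes. Pstk, the kinase of selenocysteine synthesis, was 1.24-fold higher in CD4 (1.07 to 1.44), and Mtfmt, which formylates mitochondrial initiator tRNA, was at 10.1 and 10.7 RPKM with an interval that held 1. Sepsecs, which completes selenocysteine on its tRNA, had 8.91 RPKM in CD4 and 11.3 in CD8 and was the gene with an interval below 1. Pet112l and Sepsecs were named after their values were seen.

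Among 6 relatives of the synthetases and editing enzymes the median was -0.3 and 0 passed the 1.5-fold rule. Of all genes 8.07% passed that rule toward CD4 and 7.47% toward CD8. Tarsl2, a threonyl enzyme of the cytosol that the symbol pattern leaves out, had 4.75 RPKM in CD4 against 3.31 in CD8, a difference of 1.43-fold (1.22 to 1.69), well below Tars in both. Prorsd1 was 1.42-fold higher in CD8 (1.22 to 1.67). Of the 6 genes that deliver charged tRNA to the ribosome, 0 passed the 1.5-fold rule, with a median of -0.04. Eef1a1, the elongation factor that binds charged tRNA, had 8248 RPKM in CD4 against 8094 in CD8, and Eef1b2, part of its exchange factor, was 1.22-fold higher in CD8 (1.19 to 1.24).

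Among genes that make tRNA few passed the 1.5-fold rule, which 8.07% of all genes passed toward CD4 and 7.47% toward CD8. By sign 59.5% of all genes were above 0 and 40.5% below. The interval lay above 1 for 45.0% of all genes and below it for 27.1%. Of 22 compared genes of tRNA maturation and export, 0 passed the 1.5-fold rule, 5 were above 0 and 17 below it, with a median of -0.04 that became 0.16 after rescaling to a sum of 1000000. Of their intervals 3 lay above 1, 8 below it and 11 held it. Pop5, a protein of RNase P, was 1.38-fold higher in CD4 (1.27 to 1.49), and Tsen54, of the tRNA splicing endonuclease, 1.43-fold higher in CD8 (1.27 to 1.61). Of 35 tRNA modification genes, 1 passed the 1.5-fold rule toward CD4 and 0 toward CD8, with a median of -0.06 (0.15 after that rescaling) and intervals above 1 in 9, below it in 13 and holding it in 13. The gene past the rule was Gtpbp3, a mitochondrial tRNA modifier, with 11.4 RPKM in CD4 against 7.28 in CD8, a difference of 1.57-fold (1.4 to 1.76), and Pus3, a pseudouridine synthase, differed most toward CD8 (1.51-fold, 1.4 to 1.63). The 22 genes of RNA polymerase III and its factors, which transcribe tRNA, had a median of 0.11 (0.32 after that rescaling) with 15 above 0 and 7 below, and 0 passed the 1.5-fold rule. Their intervals lay above 1 in 12, below it in 4 and held it in 6. Their repressor Maf1 was the highest, at 114 and 105 RPKM.

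The amino acid response and supply genes went both ways. Of 25 genes of the GCN2 and ATF4 response 16 passed the filter. Their median was -0.01, with 3 past the 1.5-fold rule toward CD4 and 2 toward CD8, where 8.07% and 7.47% of all genes passed. Mthfd2, an enzyme of mitochondrial folate metabolism, had 32.1 RPKM in CD4 against 16.5 in CD8, a difference of 1.94-fold (1.79 to 2.12), and Trib3, a feedback inhibitor of ATF4, was low at 1.76 and 0.553 RPKM (3.18-fold, 2.05 to 5.09). Of 12 compared amino acid transporters, 1 passed the 1.5-fold rule in each direction, Slc36a1 toward CD4 (1.66-fold) and Slc43a2, a carrier of large neutral amino acids, toward CD8 (1.76-fold). Slc1a5, which carries glutamine, was the highest, at 73.2 and 75.7 RPKM with an interval that held 1.

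Wars is known to be induced by interferon gamma, and its level was set beside 15 genes of that response. These had a median of 0 (0.21 after rescaling to a sum of 1000000). Of their intervals 7 lay above 1, 6 below it and 2 held it, where 45.0% of all genes lay above 1 and 27.1% below. At the 1.5-fold rule 0 passed toward CD4 and 2 toward CD8, where 8.07% and 7.47% of all genes passed. Socs1, a brake on cytokine signalling, had 12.8 RPKM in CD8 against 6.14 in CD4, a difference of 2.09-fold (1.84 to 2.37), and Gbp3, a GTPase of host defence, had 12.4 and 6.4 (1.94-fold, 1.72 to 2.2). Of 10 growth genes listed with Myc 8 had an interval below 1 and 2 above it, where 27.1% and 45.0% of all genes did, and the median was -0.45 (-0.24 after that rescaling). Odc1, the first enzyme of polyamine synthesis, had 67.8 RPKM in CD8 against 33.1 in CD4, a difference of 2.05-fold (1.94 to 2.16), and Ncl, the nucleolar protein nucleolin, was 1.62-fold higher in CD8 (1.58 to 1.66). The synthetases had a median of 0.03.

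**Figure D5:**
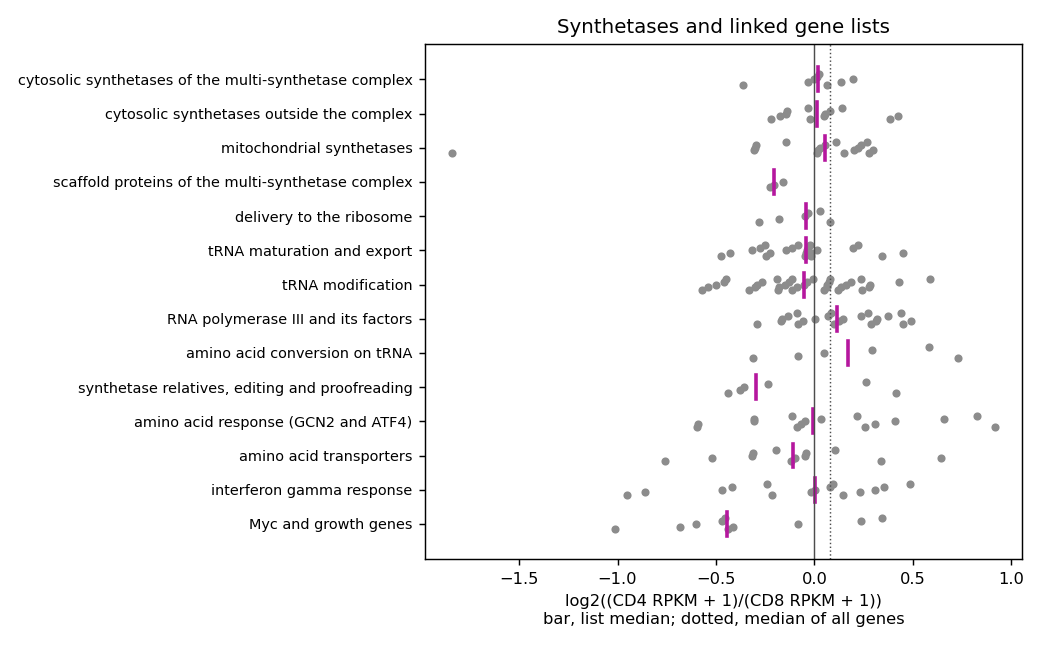
Log2 difference (CD4 minus CD8, pseudocount 1 RPKM) of each compared gene (grey points) in the synthetase groups and the lists of linked genes; bars mark list medians, the solid line 0 and the dotted line the median of all genes, 0.08. Synthetase medians lie from 0.01 to 0.05, and the growth genes have the lowest median, -0.45.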

How the data were processed

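Expression was measured by RNA sequencing of 2 libraries, 1 of naive CD4 and 1 of naive CD8 T cells, grouped by the cell type in the labels. Per the submitters' processing notes, TopHat, HTSeq and the build mm9 were used, without versions. The authors deposited RPKM values. The sources used here do not state the annotation, the strand setting or the treatment of reads with several matches. Each file had 26882 rows for 23167 symbols, and repeated rows held identical values and were used once (5 synthetases were on more than 1 row).

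Library totals and whole reads were recovered from the RPKM as the totals that make gene lengths whole numbers, scaled by the transcript lengths of GENCODE M21. For 12 of 37 synthetases a multiple of the smallest possible length, the one nearest to an annotated transcript, was taken. The statistic was log2((CD4 RPKM + 1)/(CD8 RPKM + 1)) for the 10228 genes at 1 RPKM or more in at least 1 library, with size rules of 1.5-fold and 2-fold. Single-gene folds are RPKM ratios with exact (Clopper-Pearson) 95% intervals from the split of recovered reads. They cover counting error only. Shared transcript bases were found with blastn 2.17.0 (50 bases or more at 95% identity or more, the 94.8% match being shown beside them). Calculations used Python 3.11.15 and scipy 1.17.1 and were tested on simulated data. All synthetases but 1, which like some other items is not reported here by name, and the 3 scaffold genes were named, and of other lists at most the 2 highest genes and the 2 with the largest difference. The members and lists were chosen with earlier results of these data known. Alternatives were another pseudocount (0.1 or 5 RPKM), another filter (none or 5 RPKM), centring, rescaling to a sum of 1000000 or to housekeeping genes and, added after seeing the data, leaving Rn45s out of the totals and leaving out members that share bases.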

Additional observations from a re-analysis of the deposited data

How the results depend on the processing

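No paired analysis was possible because there was 1 library per cell type, and for the same reason no replicate could be left out. Rescaling each library to a sum of 1000000 moved the median log2 difference from 0.03 to 0.24 for all synthetases. The cytosolic median moved from 0.02 to 0.23 and the mitochondrial one from 0.05 to 0.26. The median of all genes moved likewise, from 0.08 to 0.29. After that rescaling 2 synthetases were past the 1.5-fold rule toward CD4 in place of 0. The share of all genes past the rule after it is not given here, so the 2 is not read as a trait of synthetases. Of the members with an interval on 1 side of 1 the rescaling turned Farsb (0.07), Gars (0.07) and Wars (0.03) toward CD4. Of those whose interval held 1 it turned Eprs (0.21), Farsa (0.19), Hars (0.18), Rars (0.17) and Sars2 (0.05). Centring on the median gene moved the cytosolic median to -0.06 and turned Nars (-0.0017), among members with an interval on 1 side of 1. These alternatives shift every gene by construction. Leaving out members that share bases with another gene moved the mitochondrial median to 0.13 and the cytosolic one to 0. Lars2 passed the 2-fold rule toward CD8, alone among the synthetases, under the main setting and all 8 alternatives. The ratio of cytosolic to mitochondrial enzymes did not change with the filter, since every gene passed it. With 1 library per group, counting depth limits single folds, and the spread between animals and preparations is not known.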
